A study of Homo sapiens with 2 samples.

Results

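The peaks described here lie around 6 genes whose proteins restrain YAP: WWC1, WWC2, NF2, FRMD6, SAV1 and PTPN14. They were mapped by chromatin immunoprecipitation sequencing (ChIP-seq) of Flag-tagged YAP-5SA, an active YAP whose LATS-phosphorylated serines are replaced by alanine, expressed in MCF10A cells and collected on Flag-M2 beads. The study had 1 Flag-YAP-5SA ChIP library and 1 input DNA library, and reads of the input were not analysed here. MCF10A is a human mammary epithelial line that the source label calls non-transformed and another label calls breast cancer, and the promoter driving the transgene is not given in the sources used here. A peak belonged to a gene when its summit fell in a fixed hg19 window drawn around that gene. The 6 windows spanned 1.63 Mb and held 27 of the 9393 peaks. With 1 library there is no replicate, so no difference carries a test. Read depth is unknown, and intervals cover counting error only, on the reading that peaks are independent.

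The Hippo pathway is a kinase cascade in which MST kinases activate LATS kinases, and LATS phosphorylates YAP so that it is kept out of the nucleus. In the nucleus YAP binds DNA through TEAD transcription factors. The 6 proteins act upstream or beside that cascade. WWC1, also called KIBRA, and its relative WWC2 are scaffolds with WW and C2 domains that bring LATS and its activators together. NF2 encodes merlin, a FERM-domain tumour suppressor that recruits LATS to the plasma membrane. FRMD6, also called Willin, is another FERM-domain protein and the mammalian relative of Drosophila Expanded. SAV1 is the WW-domain scaffold of the MST kinases. PTPN14 is a tyrosine phosphatase with a FERM domain that binds YAP directly and holds it in the cytoplasm. Expression of such restraints by YAP itself is a known form of feedback in this pathway.

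TEAD factors bind the core GGAATG, and RefSeq promoters of the 6 genes were searched for it on both strands, from 250 bases before to 50 after each gene's start. All 6 genes had an entry and NF2 had 2. The core was present in the WWC2 promoter as 2 copies, beginning 222 and 208 bases before the start, and in the PTPN14 promoter as 1 copy on the other strand (CATTCC), beginning 200 bases before the start. Of all 35116 RefSeq promoters, 14% held at least 1 copy and 1.36% held 2 or more. The entries of WWC1, NF2, FRMD6 and SAV1 held no GGAATG. The AP-1 motif TGANTCA, searched the same way, was in none of the 6 genes' entries and in 7.71% of all promoters. The 250 bases before each start are shown for the pair with the core, which is in capitals; each reads 5′ to 3′ on the gene's own strand in GRCh38.p14. That is not the build of the peaks, so whether a peak covers either promoter was not determined. WWC2 lies at chr4:183099007-183099256 on the plus strand and PTPN14 at chr1:214551603-214551852 on the minus strand.

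WWC2: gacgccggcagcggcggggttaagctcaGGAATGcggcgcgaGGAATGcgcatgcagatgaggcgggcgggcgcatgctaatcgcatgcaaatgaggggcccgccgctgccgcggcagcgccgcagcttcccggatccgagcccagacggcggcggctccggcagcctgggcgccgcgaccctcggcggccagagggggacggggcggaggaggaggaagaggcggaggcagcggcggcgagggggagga

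PTPN14: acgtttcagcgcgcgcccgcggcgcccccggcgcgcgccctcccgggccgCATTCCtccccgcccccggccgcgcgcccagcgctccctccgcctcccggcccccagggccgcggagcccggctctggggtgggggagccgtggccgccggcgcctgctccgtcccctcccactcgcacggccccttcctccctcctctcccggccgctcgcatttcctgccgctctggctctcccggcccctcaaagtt

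Every window held at least 1 YAP-5SA peak. Among adjacent stretches of equal length along the genome, the share with no peak ran from 45.3% (FRMD6 length) to 69.7% (SAV1 length). PTPN14 had 10, WWC1 had 7, WWC2 had 4, FRMD6 had 3, NF2 had 2 and SAV1 had 1. Together the windows held 16.6 peaks per Mb (95% exact Poisson interval 10.9 to 24.1), against 3.45 per Mb in the rest of the list, a ratio of 4.81 (3.17 to 6.99). The windows were drawn around genes while the rest of the list includes stretches without genes. Whether other genes of like length have as many peaks was not tested.

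**Figure D1:**
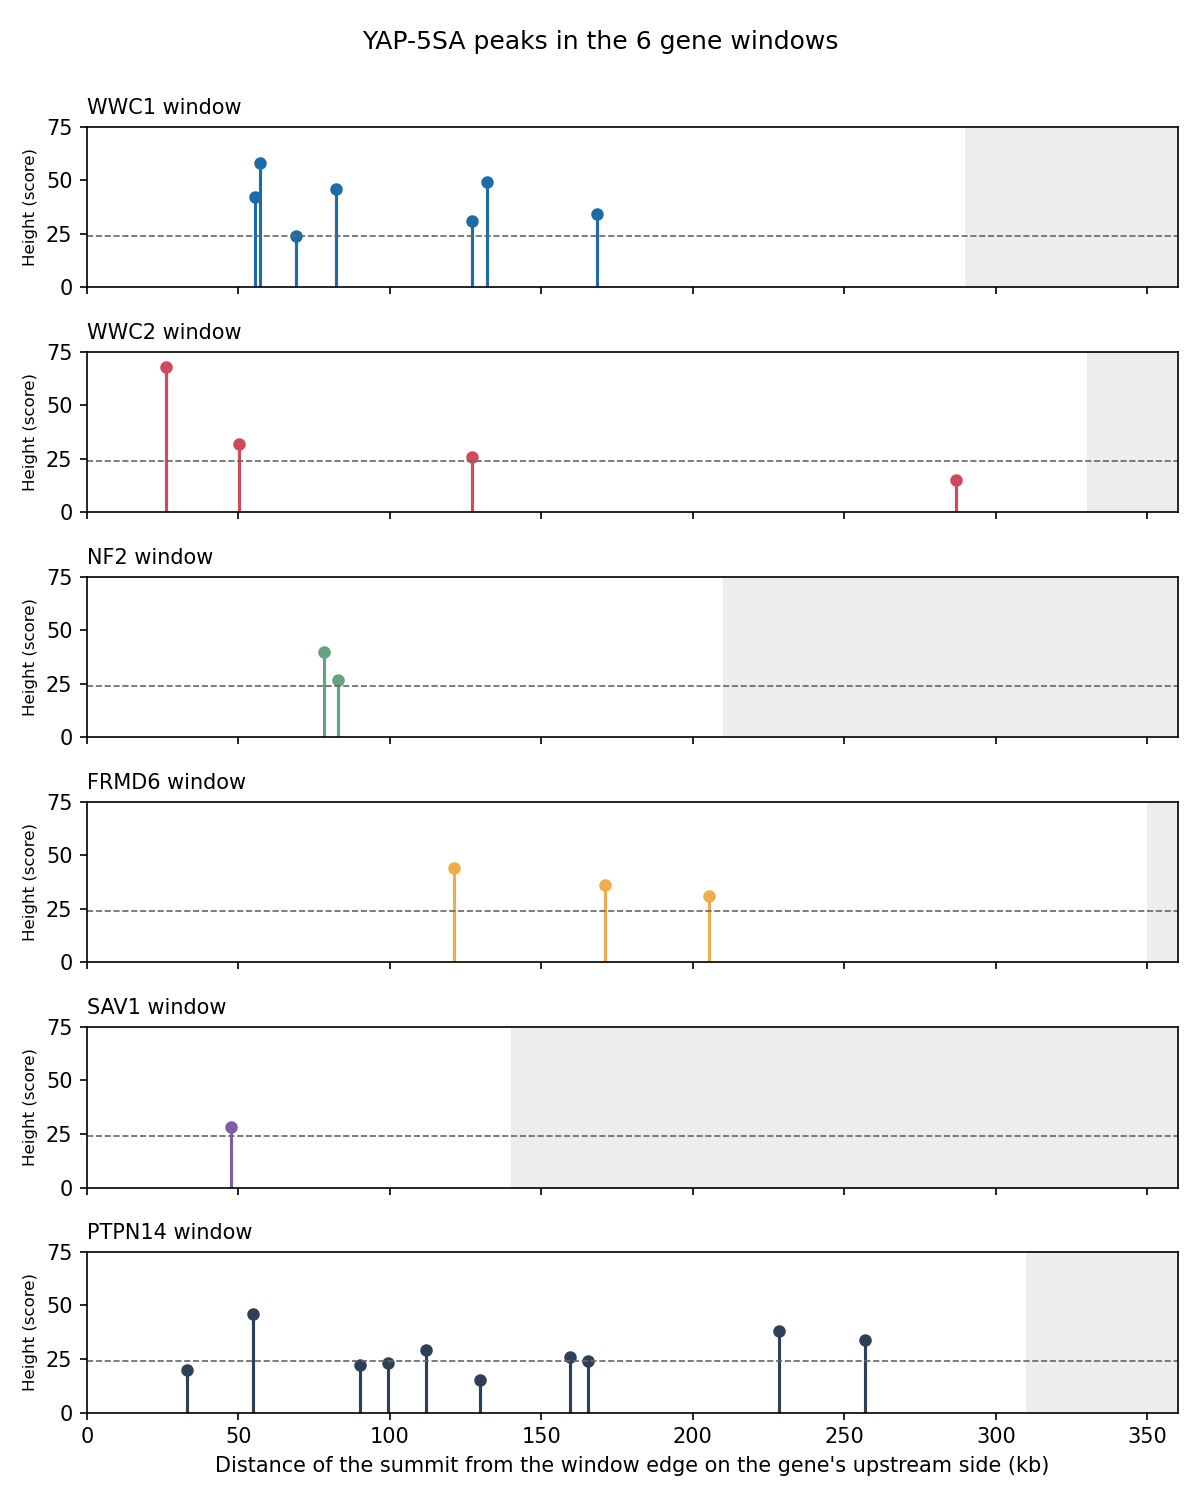
Peaks in the 6 gene windows. Each stem is a peak, placed by the distance of its summit in kb from the window edge on the gene's upstream side, with the authors' score (height) on the vertical axis; the dashed line is the median height of the list, 24, and grey areas lie beyond the window. WWC1 and PTPN14 carry 7 and 10 stems, and the SAV1 window carries 1.

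The window of WWC1, the KIBRA scaffold, was on chromosome 5 from 167.66 to 167.95 Mb and had the tallest set of peaks, with a median height of 42. Height is the authors' score at the summit, a whole number with no stated unit, whose median over the list is 24. Along the window from its upstream side the 7 heights were 42, 58, 24, 46, 31, 49 and 34. All but 1 of them exceeded the upper quartile of the list, 30, and 4 were 40 or more, a level that 8.67% of all 9393 peaks reached. The tallest, at chr5:167716738-167717543, had a height of 58, which 113 peaks of the list reached or passed.

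That peak was one of a close pair. Its neighbour at chr5:167715191-167716353 had a height of 42, and the summits were 1600 bp apart with 384 bp between the intervals. A further pair of WWC1 peaks had summits 5184 bp apart, with heights of 31 and 49. The interval of the second of these, at chr5:167791088-167793675, was 2588 bp wide, and only 2 of 9393 intervals, itself included, were as wide. Beyond the last WWC1 summit the window was empty for 121.6 kb.

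WWC1 lies in a part of chromosome 5 where peaks were dense. The 5 Mb on either side of its window had 7.2 peaks per Mb, the highest among the surroundings of the 6 windows. Of the 72 peaks there, 16.7% were 40 or more in height. On the rest of the chromosome, which means all of it outside the window and so includes those 72, the share was 10%. The WWC1 window itself had 24.1 peaks per Mb (95% exact Poisson interval 9.7 to 49.7), or 3.35 times its surroundings and 5.6 times the rest of chromosome 5. Its median height of 42 compares with 25 in the surroundings and 24 on the rest of the chromosome. DNA copy number was not corrected for at any of the 6 windows, and its part in their densities and heights was not tested.

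The window of WWC2, the paralog of WWC1, was on chromosome 4 from 183.97 to 184.3 Mb and held the tallest of the 27 peaks. Its 4 heights from the upstream side were 68, 32, 26 and 15, so they ran from the highest to close to the lowest part of the list. The peak of height 68 lay at chr4:183995617-183996376, 26 kb from the upstream edge, and 29 peaks of the whole list were as high. The peak of height 32 followed 24.1 kb further, at chr4:184019781-184020574. The peaks of height 26 and 15 came after gaps of 77.1 and 159.6 kb, and 5.17% of the list was lower than the last of them.

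Around WWC2 peaks were sparser than around WWC1. The 5 Mb on either side had 3.6 peaks per Mb with a median height of 21, and 5.56% of those 36 peaks were 40 or more. The window had 12.1 per Mb (95% interval 3.3 to 31), which is 3.36 times its surroundings, a ratio like that of WWC1 on a lower base. The GRCh38.p14 gene table places CLDN22 within WWC2 and CLDN24 next to it, and no peak was assigned to one of these genes rather than another.

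NF2, the merlin gene, had a single close pair of peaks in its window on chromosome 22 from 29.94 to 30.15 Mb. Their heights were 40, at chr22:30017910-30018648, and 27, at chr22:30022431-30022900, with summits 4384 bp apart. Both exceeded the median of the list, and the first was at the level that 8.67% of peaks reached. The window was empty for 78.3 kb on its upstream side and for 127.3 kb beyond the pair. The next summit past its far edge was 453.1 kb away, so the pair stood alone on that side. Density in the window was 9.52 per Mb (95% interval 1.15 to 34.4), against 4 per Mb in the 5 Mb on either side.

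FRMD6, the Willin gene, had 3 peaks in its window on chromosome 14 from 51.9 to 52.25 Mb, and all 3 exceeded the upper quartile of the list. Their heights from the upstream side were 44, 36 and 31. The tallest lay at chr14:52020902-52021558, and the others followed at chr14:52070639-52071389 and chr14:52104774-52105480. They were spread over 83.9 kb in the middle of the window, which was empty for 121.3 kb before and 144.8 kb after them. Density was 8.57 per Mb (95% interval 1.77 to 25), against 3.9 per Mb in the surroundings. The surrounding 39 peaks had a median height of 28, above the 24 of the list, and 1 of them was 40 or more.

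SAV1, the scaffold of the MST kinases, had the fewest peaks. Its window, on chromosome 14 from 51.05 to 51.19 Mb, is the shortest of the 6 at 140 kb and held 1 peak, at chr14:51142157-51142877, with a height of 28. That height was above the 24 of the list and below the median of 29 in the 5 Mb on either side. The nearest summit was 342592 bp away. A stretch of this length with 1 peak or more was common: 30.3% of 20786 adjacent stretches of 140 kb along the genome had as many. The SAV1 and FRMD6 windows are on the same chromosome arm, so their surroundings share peaks. The surroundings of SAV1 include the FRMD6 peaks, and those of FRMD6 include the SAV1 peak.

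PTPN14, the phosphatase that binds YAP, had the densest window, on chromosome 1 from 214.47 to 214.78 Mb. Its 10 peaks gave 32.3 per Mb (95% interval 15.5 to 59.3), against 5.5 per Mb in the 5 Mb on either side, a ratio of 5.87, and 4.46 per Mb on the rest of the chromosome, a ratio of 7.24. PTPN14 is on the minus strand, and from its upstream side the heights were 20, 46, 22, 23, 29, 15, 26, 24, 38 and 34. These peaks were many rather than tall. Their median height was 25, the same as in the surroundings and on the rest of chromosome 1, and 5 of the 10 exceeded it. DNA copy number was not corrected for here either.

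The tallest PTPN14 peak, of height 46, lay at chr1:214724866-214726113 and was also the widest of the window, at 1248 bp. Heights of 38 and 34 were reached at the other end, at chr1:214551150-214551746 and chr1:214522957-214523649. Between these and the tallest lay 6 peaks of heights from 15 to 29, and the peak of height 20 lay upstream of the tallest. No gap between neighbouring PTPN14 summits was over 63.2 kb, and the peaks ran over 223.6 kb in all. A pair with summits 5856 bp apart had heights of 24 and 26 but broad intervals of 1064 and 1148 bp. Peak positions are in hg19, whereas the PTPN14 promoter position given above is in GRCh38.p14. The likeness of chr1:214551150-214551746 to that promoter position cannot be read as an overlap.

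**Figure D2:**
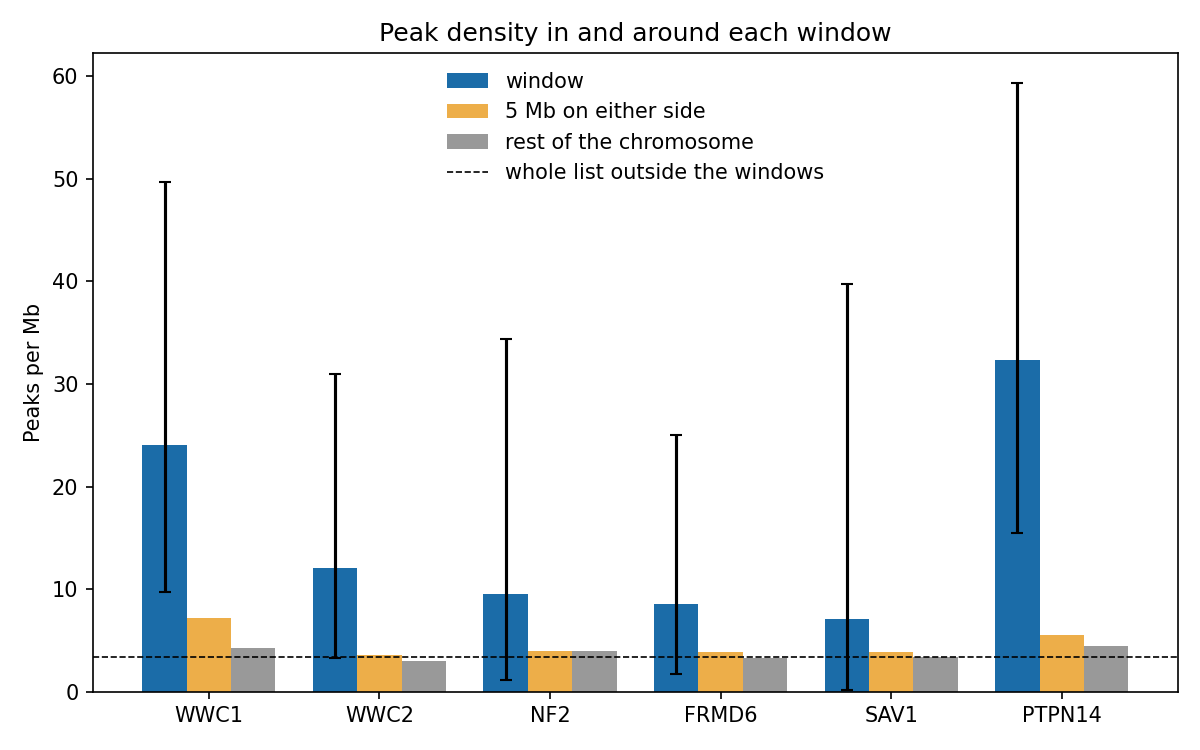
Peaks per Mb in each window (bars with 95% exact Poisson intervals, which cover counting error only), in the 5 Mb on either side, on the rest of the chromosome, and in the list outside the windows (dashed line, 3.45). The rest of the chromosome includes the 5 Mb on either side. All 6 windows are above their surroundings, by 1.83 times for SAV1 to 5.87 times for PTPN14, and the intervals of WWC1 and PTPN14 lie above theirs. The intervals take peaks as independent and would be too narrow where peaks cluster, so their position is not a test.

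In order of density the windows ran PTPN14, WWC1, WWC2, NF2, FRMD6 and SAV1. The Poisson intervals of all the windows overlapped, those at the ends of the order included. In peaks per Mb they were 15.5 to 59.3 for PTPN14, 1.77 to 25 for FRMD6 and 0.181 to 39.8 for SAV1. Overlap of intervals is not a test, and differences between windows were not tested, so the order only describes the counts. Each window was also set beside all adjacent stretches of its own length along the genome. As many peaks as in the PTPN14 window were found in 6 of 9380 stretches (0.064%), and the fullest had 14. As many as in the WWC1 window were found in 65 of 10030 (0.648%). The shares were 6.3% for WWC2, 15% for FRMD6 and 16.2% for NF2. Counts like those of WWC1 and PTPN14 were thus infrequent among such stretches, and counts like those of NF2, FRMD6 and SAV1 were common. Many of the stretches held no peak: 48.9% at the length of the PTPN14 window and 50.8% at that of WWC1. Stretches without genes were not removed, so these shares do not compare the windows with other genes.

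**Figure D3:**
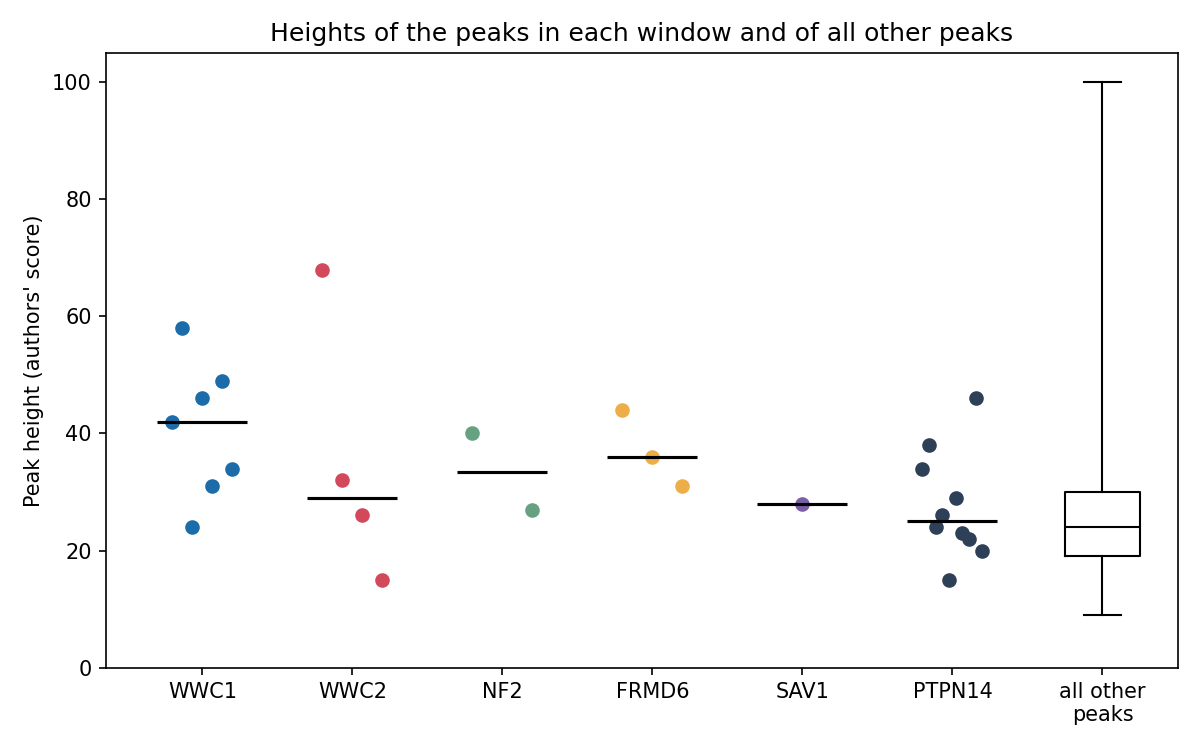
Height of every peak (authors' score) by window, with a line at each window's median, and all 9366 other peaks as a box with its median and quartiles and whiskers to the extremes. The WWC1 median, 42, is above the upper quartile of the other peaks, 30, and the PTPN14 median, 25, lies inside their box.

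Over the 6 windows the median height was 31 (95% interval from order statistics 26 to 40), against 24 for all other peaks. A height of 40 or more was reached by 8 of 27 peaks, or 29.6% (95% exact binomial interval 13.8 to 50.2), against 8.61% of the other peaks. WWC1 gave 4 of the 8, and WWC2, NF2, FRMD6 and PTPN14 gave 1 each. Without the WWC1 window the share was 20% and the median 28.5. The upper quartile of the list was exceeded by 15 of the 27, or 55.6% (35.3 to 74.5), where 23.6% of the list did so. Set against the median of the 5 Mb around its own window, 19 of the 27 peaks were higher. They were 6 of 7 for WWC1, 3 of 4 for WWC2, 2 of 2 for NF2 and 3 of 3 for FRMD6. SAV1 had 0 of 1 and PTPN14 had 5 of 10. For scale, the median of the whole list was exceeded by 74.1% of the 27 peaks and by 45.5% of all other peaks.

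The peaks of the 6 genes were wide as well. Median width was 721 bp (95% interval 640 to 806), against 611 bp elsewhere. The upper quartile of width, 709 bp, was exceeded by 14 of 27 intervals, or 51.9% (31.9 to 71.3), where 25% of the list exceeded it. WWC1 had 5 of the 14 and PTPN14 had 4. Without the WWC1 window the median width was 700 bp, and 9 of 20 intervals exceeded that quartile. By window the median width ran from 604.5 bp at NF2, below the 611 bp of the list, to 910 bp at WWC1. Widths ran from 462 bp at WWC2 to 2588 bp at WWC1. Taller peaks tended to be wider, with a Spearman's rho of 0.5 over the 27 peaks, which share 1 library, against 0.15 over all other peaks. No interval was computed for either rho, and the difference between them was not tested. The broad PTPN14 intervals of heights 24 and 26 depart from that tendency.

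**Figure D4:**
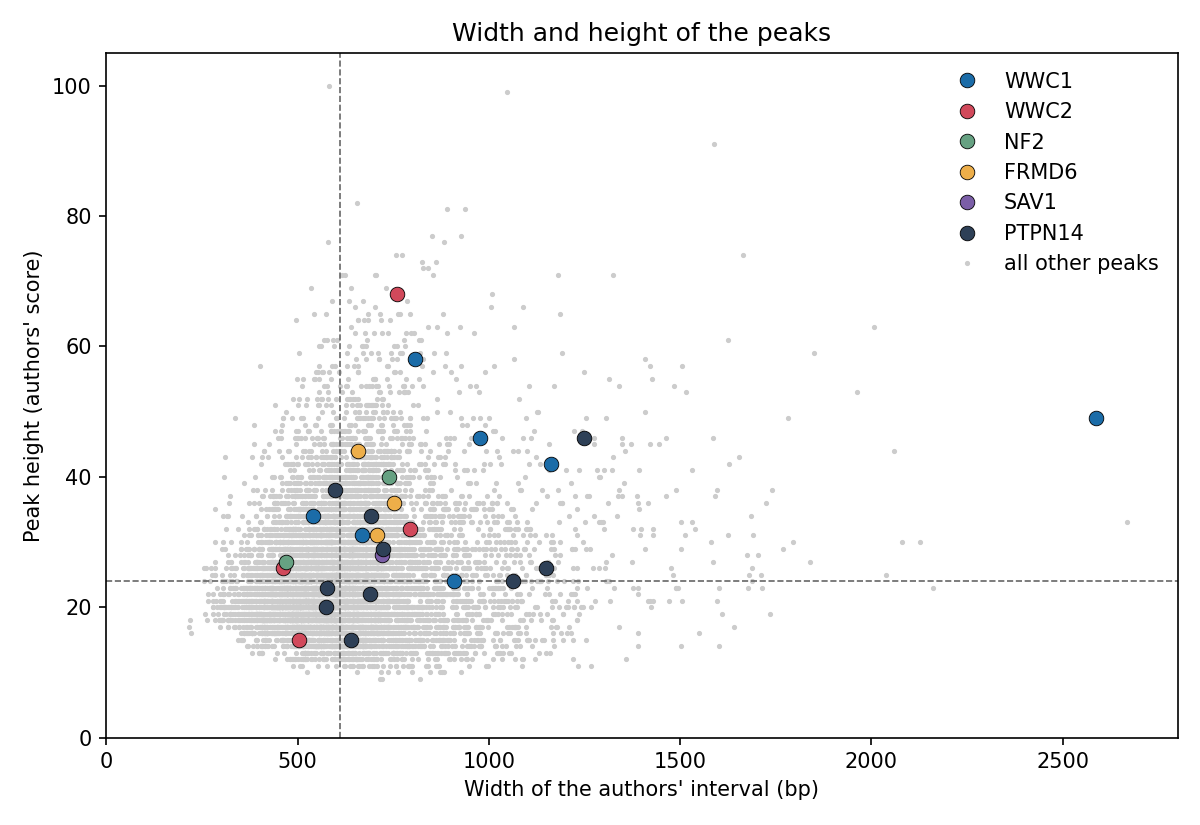
Width of the interval in bp against height (authors' score) for the 27 peaks, coloured by window, and for all other peaks in grey; dashed lines mark the medians of the list, 611 bp and 24. The WWC1 interval of 2588 bp lies far to the right, and the WWC2 peak of height 68 is the tallest of the 27.

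Close spacing was shared by some of the windows. Another summit lay within 10 kb of 10 of the 27 peaks, or 37% (95% exact binomial interval 19.4 to 57.6), where 19.5% of the list had one. They were 4 peaks each at WWC1 and PTPN14 and both at NF2, with none at WWC2, FRMD6 or SAV1. Within 50 kb, 24 of 27 had another summit, against 47.8% of the list. Windows dense in peaks have close neighbours by construction, so these shares are not separate from the densities.

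Within the windows, summits lay mostly nearer to the edge on the gene's upstream side, a comparison chosen after the positions had been seen. Being on that side does not place a summit upstream of the gene, because start sites were not located in hg19. With the strand of each gene taken from RefSeq, 20 of 27 summits were nearer to the upstream than to the downstream edge of their window. All 8 peaks of height 40 or more were among these 20. Median heights were 31.5 for the 20 and 31 for the other 7. Without the WWC1 window, 14 of 20 summits and 4 of 4 peaks of height 40 or more were on that side. Whether summits around other genes lean the same way was not tested. At WWC1, 6 of 7 summits were nearer to the upstream edge, with a median height of 44, against 34 for the other. At PTPN14, 6 of 10 were, and heights ran the other way, with a median of 22.5 for the 6 and 30 for the other 4. Whether a peak is in a promoter, exon or intron was not determined, since an hg19 annotation was not used here.

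The window edges decided little of the peak count, which was 27 with windows shortened by 20 kb on both sides and 28 with windows lengthened by 50 kb. They mattered more for density: the ratio of 4.81 became 5.64 and 3.64. The peaks nearest to an edge on the inside were the WWC2 peak of height 68, 26 kb from its edge, and the PTPN14 peak of height 20, 33.1 kb from its edge. Nearest on the outside were a peak of height 23, 37 kb below the FRMD6 window, one of height 16, 56.6 kb above the WWC1 window, and one of height 55, 79.7 kb below the PTPN14 window, on the side of the neighbouring gene SMYD2. Protein-coding neighbours in the GRCh38.p14 gene table are TENM2 and RARS1 for WWC1, DCTD and CLDN24 for WWC2, NIPSNAP1 and CABP7 for NF2, TMX1 and GNG2 for FRMD6, ATL1 and NIN for SAV1, and SMYD2 and CENPF for PTPN14. A peak in a window may lie nearer to such a neighbour, and binding near a gene does not show that its transcription changed.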

How the data were processed

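BWA 0.6.1, MACS and hg19 are named in the submitters' processing notes. Not given in the sources used here are the version and threshold of MACS, any duplicate filter and whether the input served as control. The deposited file holds, per the file headers, a summit track with a score per peak, here called height, and an interval track. The authors' score has no stated unit and was used only within this list. Both tracks were joined by line order, and every summit lay inside its interval. Interval positions are 1-based; 80.4% of summits fell on multiples of 32 bp.

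The windows, gene lists and call levels were chosen with earlier results of these data known. All peaks of the 6 genes are reported. Background density used, for each chromosome, the span between its outermost summits without the longest peak-free stretch. Stretches of a window's length were laid end to end from each first summit, and the longest peak-free stretch was kept among them. The counting functions were tested on simulated data. Strands, names and promoters came from RefSeq, GRCh38.p14, whose coordinates were never set against the peaks. Placement relative to start sites, exons and the rest of the Hippo pathway, motifs in peaks and protein sequences were not analysed here, for want of an hg19 genome, an hg19 annotation and a protein table in this work. Alternatives changed the peak set, window edges, background and windows included. Python 3.11.15, numpy 2.4.6, pandas 2.3.3 and scipy 1.17.1 were used.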

Additional observations from a re-analysis of the deposited data

How the results depend on the processing

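No paired analysis was possible because each group is 1 library, so no replicate could be left out either. With peaks higher than the median of the list only, the density ratio was 7.83, against 4.81. That median was exceeded by 74.1% of the 27 peaks, against 45.5% of all other peaks. The PTPN14 count under that setting was 5, against 10. Under the other 10 alternatives the ratio ran from 3.64, with windows lengthened by 50 kb on both sides, to 5.64. The difference of median heights was 7, from 4.5 without WWC1 to 10 without PTPN14 over 10 alternatives. The share at 40 or more was 29.6%, from 20% without WWC1 to 41.2% without PTPN14. The total of 27 peaks became 20 to 28 under 5 alternatives. The ratio, the difference and the share kept their directions, and a count has no direction to reverse. Leaving out windows for the ratio and all alternatives for the share were chosen after seeing the data. Those for start sites and motifs in peaks were not run. Read depth is unknown.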
